A study of Homo sapiens with 9 samples.

Results

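Matrix metalloproteinases (MMPs) are zinc-dependent enzymes that cut collagen, gelatin, laminin and other proteins around the cell, and tissue inhibitors of metalloproteinases (TIMPs) are secreted proteins that block them. The genes described here are 7 MMPs (MMP1, MMP2, MMP3, MMP7, MMP9, MMP13 and MMP14) and 3 inhibitors (TIMP1, TIMP2 and TIMP3). They are 10 of the 20030 genes in the count and FPKM tables, listed by name with earlier results of these data known. All 10 were found in both tables. They were followed across 9 RNA sequencing libraries of the human hepatocellular carcinoma (HCC) line MHCC97L, with 3 libraries from each of 3 lines. MHCC97L itself received no drug. MHCC97L-Src was derived from it by rising doses of saracatinib, an inhibitor of Src family kinases, until it stably tolerated 4 μmol/L, and MHCC97L-Oxa was made stably resistant to 2 μmol/L oxaliplatin, a platinum compound that damages DNA. All 3 lines share the MHCC97L background and were grown in DMEM with fetal bovine serum. Whether a drug was in the medium at harvest is not given in the labels. Each drug is represented by 1 derived line, so an effect of the drug and the history of that line cannot be told apart. The labels do not say that the 3 libraries of a line came from separate cultures, so the p-values measure the spread between these libraries, which may be technical.

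Most MMPs are made as inactive precursors. The precursor of MMP2, a gelatinase that cuts type IV collagen of basement membranes, is known to be activated at the cell surface by MMP14, a membrane-bound MMP, with TIMP2 serving as the bridge between them. TIMP2 therefore takes part in activation at low amounts and inhibits at high amounts. In HCC, MMPs are studied mainly for their part in invasion, and TIMP1 and TIMP2 also act on cells through surface receptors apart from protease inhibition. RNA levels, which are all that was measured here, do not give the amount of active enzyme.

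Promoter sequence was available for 4 of the 10 genes, MMP7, MMP14, TIMP1 and TIMP3, as the 250 bases before the RefSeq start site on GRCh38.p14. Below are those of TIMP3, which was abundant and had higher values in both resistant lines, and of MMP7, which had almost no reads in any line. For TIMP1 only the 28 bases around its TGAGTAA and AGGAAG letters are given. They lie inside the gene as GENCODE release 29 draws it, whose start is upstream of the RefSeq start and takes in 123 bases of the window. Capitals mark the letters searched for on both strands. TGANTCA and its variant TGAGTAA can be bound by AP-1 factors such as FOS and JUN. The letters AGGAAG, which read CTTCCT where they lie on the other strand, can be bound by ETS factors. The GC box GGGCGG, which then reads CCGCCC, and the letters TATAA were also searched for. No 2 of these letter strings overlapped in the windows printed.
TIMP3 (chr22:32801455-32801704, plus strand): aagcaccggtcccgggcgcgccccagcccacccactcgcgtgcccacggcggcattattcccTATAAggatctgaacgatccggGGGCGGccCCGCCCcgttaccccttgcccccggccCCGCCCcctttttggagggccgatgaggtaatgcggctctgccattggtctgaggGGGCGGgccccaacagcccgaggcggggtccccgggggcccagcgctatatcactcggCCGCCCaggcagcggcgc
TIMP1 (chrX:47582329-47582356, plus strand): ggtggaTGAGTAAtgcatccAGGAAGcc
MMP7 (chr11:102530748-102530997, minus strand): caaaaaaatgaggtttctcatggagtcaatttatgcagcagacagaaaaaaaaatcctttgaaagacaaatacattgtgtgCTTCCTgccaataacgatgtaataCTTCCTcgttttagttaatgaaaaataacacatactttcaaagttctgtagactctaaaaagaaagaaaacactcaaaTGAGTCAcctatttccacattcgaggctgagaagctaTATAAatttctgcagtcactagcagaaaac
The MMP7 window held TGAGTCA from -67 to -61, AGGAAG 2 times on the other strand, and TATAA from -30 to -26. The TIMP1 window held TGAGTAA from -101 to -95 and AGGAAG from -87 to -82. Outside the 28 bases printed it also held CCGCCC from -135 to -130 and from -45 to -40. The TIMP3 window held 5 GC boxes on the 2 strands, TATAA from -188 to -184 and no AP-1 letters. The GC content of the TIMP3 window was 72.4% against 33.6% for MMP7. The MMP14 window, not printed here, held GGGCGG from -66 to -61. Among 35116 RefSeq promoter windows of the same length, 6.57% held TGANTCA, 2.21% TGAGTAA, 28.71% AGGAAG, 42.64% GGGCGG and 18.93% TATAA. These matches are descriptions of the letters and not evidence of binding.

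Library depth was even, at 16970486 to 18209213 counted reads, and the limit that a count of 0 allows, 3 reads, corresponded to 0.165 to 0.177 CPM, counts scaled to library size (counting error only). MHCC97L replicate 1 stood apart. Its log2 deviation from the average library fell with the GC content of the gene (Spearman rho = -0.785 over 11979 genes), while rho was -0.236 for MHCC97L replicate 3 and ranged from 0.206 to 0.705 elsewhere (7 libraries). Pearson correlations between libraries of a line were 0.852 to 0.954 in MHCC97L, 0.969 to 0.988 for MHCC97L-Src and 0.984 to 0.990 for MHCC97L-Oxa. For the tested genes among the 10, and for other listed genes that passed, comparisons with MHCC97L are therefore also given with offsets for GC content and gene length and without that library. The labelled liver cell type was checked against its markers. ALB, AFP, APOB and TTR had 0 reads in all 9 libraries, and SERPINA1 had 1 to 31, whereas the epithelial keratins KRT8 and KRT18 were abundant. Markers of other cells that make MMPs were also checked. PTPRC, CD163 and LYZ of leukocytes had 0 reads in all libraries and the fibroblast genes PDGFRA and COL1A2 had at most 2 reads. Other genes of these marker lists were present, among them THY1 (5276 to 10825 reads), COL1A1 (1022 to 1491), DCN (163 to 2256) and PDGFRB (181 to 690) of fibroblasts, CD68 (862 to 2608) and CSF1R (29 to 233) of macrophages and ENG (1345 to 2392) of endothelial cells.

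The MMP and TIMP genes fell into an abundant and a nearly silent set. MMP2, TIMP1, TIMP2 and TIMP3 had 2687 reads or more in every library, MMP14 had 17 to 34, and MMP1, MMP3, MMP7, MMP9 and MMP13 had at most 9. FPKM, fragments scaled to transcript length and library size, allows levels of different genes to be set side by side. In MHCC97L the order was TIMP2 (223 ± 32.1 FPKM, mean ± SD, n = 3), TIMP1 (131 ± 26.0), MMP2 (53.2 ± 10.7), TIMP3 (28.6 ± 4.75) and MMP14 (0.196 ± 0.0477), and no neighbours in this order overlapped. In MHCC97L-Src TIMP1 came first, at 289 ± 14.8 FPKM, above TIMP2 at 229 ± 28.6 with no overlap. In MHCC97L-Oxa TIMP1 (308 ± 6.32 FPKM) and TIMP2 (292 ± 9.59) overlapped, so their order there is not settled by the libraries. Below MMP14 the neighbours overlapped in MHCC97L. By rank of mean FPKM, TIMP2 was gene 245 in MHCC97L, 271 for MHCC97L-Src and 213 for MHCC97L-Oxa, that is within the top 1.35% of the genes in the table.

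**Figure D1:**
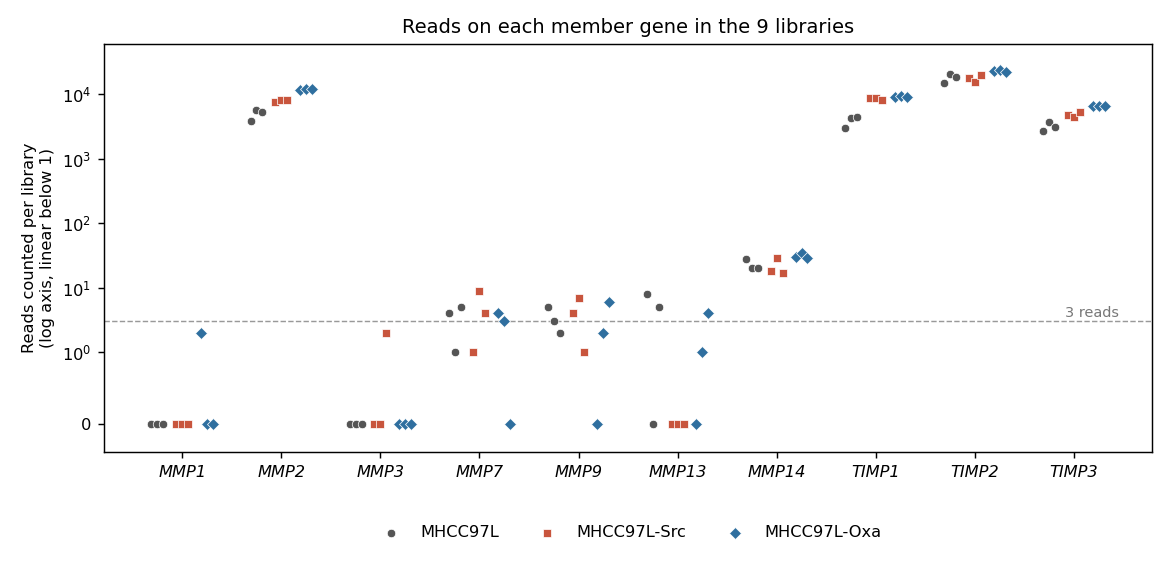
Reads counted on each of the 10 genes (y axis, logarithmic above 1 read and linear below) in the 9 libraries, with 1 point per library and colour and shape by line. MMP2 and the 3 TIMPs lie at 2687 reads or more in every library, MMP14 between 17 and 34, and the other 5 MMPs at 9 or fewer.

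MMP2 lies on chromosome 16 (55389700 to 55506691, plus strand, GENCODE 29 on GRCh38). Its read counts were 3801, 5782 and 5265 in MHCC97L, 7525, 8133 and 8156 for MHCC97L-Src and 11495, 11937 and 12002 for MHCC97L-Oxa. The 3 lines did not overlap: MHCC97L was lowest, MHCC97L-Src lay between, and MHCC97L-Oxa was highest. In FPKM the means were 53.2 ± 10.7, 86.6 ± 4.58 and 125 ± 3.75 (SD, n = 3 each), and MMP2 moved from rank 1130 in MHCC97L to rank 492 in MHCC97L-Oxa. Between the resistant lines MMP2 was lower in MHCC97L-Src than in MHCC97L-Oxa, with a log2 fold change of -0.46 (SE 0.11, adjusted p = 0.0392 by edgeR's quasi-likelihood test, 0.727-fold). It was the 1 gene of the 5 tested that passed in this comparison, in which 4.64% of all 11994 genes tested passed. None of the MHCC97L libraries enters that test. The call was kept without MHCC97L-Src replicate 2 or replicate 3 and lost without each of the other 4 libraries, with log2 fold changes from -0.56 to -0.41 and adjusted p-values from 0.00104 to 0.272. With GC content and length offsets the log2 fold change was -0.55 (adjusted p = 0.00139). DESeq2 gave an adjusted p of 0.0551, edgeR with DESeq2's size factors 0.0789, and edgeR with all 9 libraries in 1 fit 0.718, so the call was lost in each.

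Against MHCC97L the MMP2 values were higher in both resistant lines, but the adjusted p did not pass. The log2 fold change was 1.24 (SE 0.24, unadjusted p = 7.49e-04, adjusted p = 0.0598, 2.37-fold) in MHCC97L-Oxa and 0.79 (SE 0.26, unadjusted p = 0.0140, adjusted p = 0.113, 1.72-fold) in MHCC97L-Src. MHCC97L replicate 1, the library that stood apart by GC content, held the lowest of the 3 MHCC97L counts. Without it the log2 fold change was 1.14 (adjusted p = 0.00135) for MHCC97L-Oxa and 0.63 (adjusted p = 0.0677) for MHCC97L-Src. With the offsets it was 1.02 (adjusted p = 0.00160) and 0.47 (adjusted p = 0.0208). The offsets moved the median log2 fold change of all genes from -0.16 to -0.05 for MHCC97L-Src and from -0.19 to -0.07 for MHCC97L-Oxa. Leaving out 1 library at a time, MMP2 passed in 2 of 6 fits for MHCC97L-Oxa, with adjusted p-values up to 0.321. For MHCC97L-Src it passed in 1 of 6, with values up to 0.328. The direction for MMP2 was the same in all 15 alternatives of each comparison.

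MMP14, a membrane-bound activator of the MMP2 precursor, lies on chromosome 14 (22836557 to 22849027, plus strand). It had 28, 20 and 20 reads in MHCC97L, 18, 29 and 17 for MHCC97L-Src and 30, 34 and 29 for MHCC97L-Oxa. The MHCC97L-Src counts spanned those of MHCC97L, and the MHCC97L-Oxa counts lay just above them. At this depth no difference was detectable: the log2 fold change was 0.06 (SE 0.46, adjusted p = 0.943) for MHCC97L-Src, 0.46 (SE 0.37, adjusted p = 0.440) for MHCC97L-Oxa and -0.41 (SE 0.36, adjusted p = 0.566) between the resistant lines. The sign for MHCC97L-Src turned under 4 alternatives, for example to -0.31 with the offsets, and without MHCC97L replicate 1 the value was 0.22 (adjusted p = 0.846). For MHCC97L-Oxa these fits gave 0.26 (adjusted p = 0.620) and 0.67 (adjusted p = 0.210). In FPKM, MMP14 reached 0.314 ± 0.0630 in MHCC97L-Oxa, where MMP2 stood at 125.

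MMP1, MMP3, MMP7 and MMP13 share a cluster of 9 MMP genes on chromosome 11 (102520508 to 102955734, 435.2 kb). MMP1 and MMP13 are collagenases, MMP3 is stromelysin 1 and MMP7 is matrilysin, an epithelial MMP. Across the cluster 4 genes had any read, and none exceeded 9 reads in a library. MMP1 had 2 reads in MHCC97L-Oxa replicate 1 and 0 elsewhere, and MMP3 had 2 reads in MHCC97L-Src replicate 3 and 0 elsewhere, which is under the 3-read limit. MMP7 had 4, 1 and 5 reads in MHCC97L, 1, 9 and 4 for MHCC97L-Src and 4, 3 and 0 for MHCC97L-Oxa. MMP13 had 8, 0 and 5 reads in MHCC97L, 0 in each MHCC97L-Src library and 0, 1 and 4 in MHCC97L-Oxa. MMP9, the second gelatinase, lies on chromosome 20 (46008908 to 46016561, plus strand) and had 5, 3 and 2 reads in MHCC97L, 4, 7 and 1 for MHCC97L-Src and 0, 2 and 6 for MHCC97L-Oxa. The 3 lines overlapped for all 5 genes, and none was kept by the filter on low counts. A difference in these genes was not detectable at this depth. Of the gelatinases, MMP2 with 3801 to 12002 reads per library stood far above MMP9 with 0 to 7.

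TIMP1 lies on the X chromosome (47582313 to 47586789, plus strand) and encodes a secreted inhibitor of most soluble MMPs. Its counts were 2950, 4332 and 4350 in MHCC97L, 8571, 8780 and 7977 for MHCC97L-Src and 9102, 9296 and 9182 for MHCC97L-Oxa. Both resistant lines lay above every MHCC97L library and the resistant lines were close to each other. The log2 fold change was 1.23 for both MHCC97L-Src (SE 0.26, adjusted p = 0.0532, 2.35-fold) and MHCC97L-Oxa (SE 0.23, adjusted p = 0.0581, 2.35-fold), just outside the threshold of 0.05. Between the resistant lines it was -0.01 (SE 0.11, adjusted p = 0.980). Without MHCC97L replicate 1, the lowest library, the adjusted p was 0.00878 for MHCC97L-Src and 6.69e-04 for MHCC97L-Oxa, with log2 fold changes of 1.07 and 1.13. With the GC content and length offsets the log2 fold changes were smaller, at 0.75 (adjusted p = 0.00641) and 0.88 (adjusted p = 0.00342). TIMP1 passed in 10 of 15 alternatives for MHCC97L-Src and in 9 of 15 for MHCC97L-Oxa. Of the 6 fits that left out 1 library it passed in 2 for each line, with adjusted p-values up to 0.210 and 0.321. TIMP1 lies within SYN1 on the opposite strand, and since the strand setting of the counting is not given in the sources used here, reads of the pair cannot be told apart. SYN1 was assigned only 8 to 31 reads. SYN3, which overlaps TIMP3 on the opposite strand, had at most 10 reads. CEP295NL lies in TIMP2 on the same strand, so that strand cannot separate that pair, and had at most 8 reads.

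TIMP3, an inhibitor that stays bound to the extracellular matrix and also blocks ADAM proteases, lies on chromosome 22 (32801701 to 32863043, plus strand). Its counts were 2687, 3663 and 3070 in MHCC97L, 4754, 4357 and 5206 for MHCC97L-Src and 6482, 6590 and 6651 for MHCC97L-Oxa. As for MMP2, the 3 lines did not overlap and MHCC97L-Oxa was highest. In FPKM the means were 28.6 ± 4.75, 44.4 ± 3.60 and 59.5 ± 1.31 (SD, n = 3 each). The log2 fold change was 1.06 (SE 0.21, adjusted p = 0.0652) for MHCC97L-Oxa, 0.70 (SE 0.23, adjusted p = 0.112) for MHCC97L-Src and -0.36 (SE 0.10, adjusted p = 0.0665) between the resistant lines. Without MHCC97L replicate 1 the adjusted p was 0.00341 for MHCC97L-Oxa and 0.0782 for MHCC97L-Src. Of the 6 fits that left out 1 library, TIMP3 passed in 2 for MHCC97L-Oxa (adjusted p up to 0.371) and in 1 for MHCC97L-Src (up to 0.305). The offsets gave 1.24 (adjusted p = 0.0389) and 0.96 (adjusted p = 0.0983), higher than the values without offsets, whereas those of MMP2 and TIMP1 were lower. The transcript model of TIMP3 had a GC content of 48.7%, against 56.8% for MMP2 and 58.1% for TIMP1.

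TIMP2 lies on chromosome 17 (78852977 to 78925387, minus strand). It had 14696, 20217 and 18597 reads in MHCC97L, 17979, 15650 and 19924 for MHCC97L-Src and 22546, 23560 and 22078 for MHCC97L-Oxa. MHCC97L and MHCC97L-Src overlapped, and all 3 MHCC97L-Oxa libraries lay above both. None of the differences passed: the log2 fold change was 0.10 (SE 0.24, adjusted p = 0.802) for MHCC97L-Src, 0.34 (SE 0.22, adjusted p = 0.348) for MHCC97L-Oxa and -0.24 (SE 0.10, adjusted p = 0.195) between the resistant lines. With the offsets the last of these was -0.30 (adjusted p = 0.0196). For MHCC97L-Oxa they gave 0.29 (adjusted p = 0.132), and without MHCC97L replicate 1 the value was 0.27 (adjusted p = 0.0529). The sign for MHCC97L-Src turned without MHCC97L replicate 1, to -0.03, and with the offsets, to -0.0092.

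**Figure D2:**
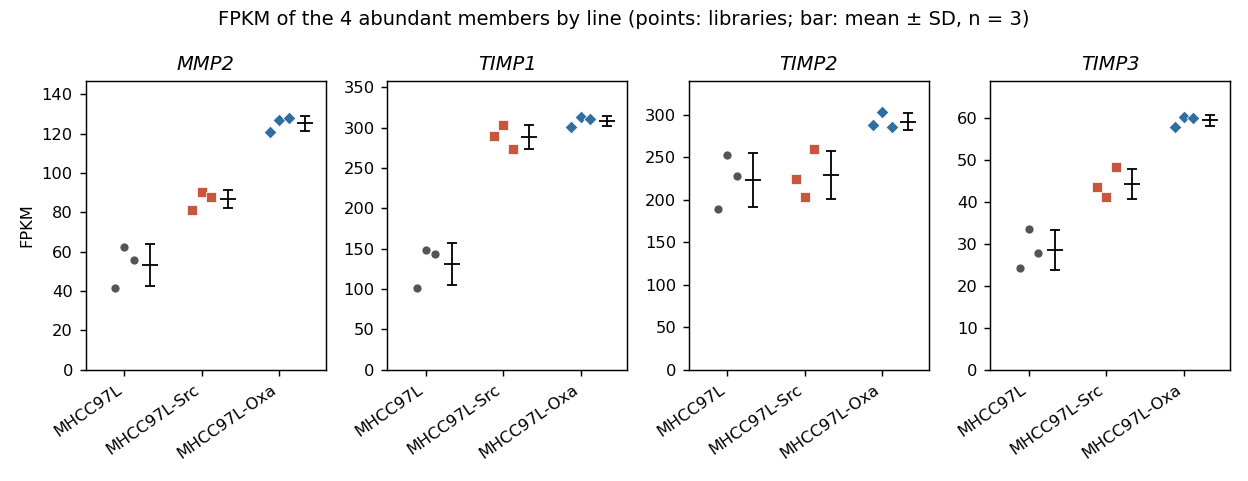
FPKM (y axis, from 0) of MMP2, TIMP1, TIMP2 and TIMP3 in the 3 lines, with 1 point per library and a bar for the mean ± SD (n = 3). MMP2 and TIMP3 step up from MHCC97L through MHCC97L-Src to MHCC97L-Oxa, TIMP1 is alike in both resistant lines at 274 FPKM or more against at most 149 in MHCC97L, and TIMP2 of MHCC97L-Src overlaps MHCC97L.

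In the comparison of MHCC97L-Src with MHCC97L, 0 of the 5 tested genes passed an adjusted p of 0.05 by edgeR, where 2.13% of all 12037 genes did, 3 had an unadjusted p under 0.05 (TIMP1, TIMP3 and MMP2), as did 29.5% of all genes, and DESeq2 called 1 (TIMP1), where it called 17.6% of all genes. TIMP1 met the looser rule of an unadjusted p under 0.05 with a log2 fold change over 1, met by 24.6% of all genes in either direction. MMP2, TIMP1 and TIMP3 were higher with no overlap of the libraries, a pattern that 18.7% of all genes showed. In MHCC97L-Oxa against MHCC97L, 0 of 5 passed the adjusted p by edgeR, where 0.953% of all 12064 genes did, and DESeq2 called 3 (MMP2, TIMP1 and TIMP3), where it called 7.40% of all genes. The same 3 had an unadjusted p under 0.05, as did 22.4% of all genes. MMP2, TIMP1 and TIMP3 met the looser rule, met by 16.2% of all genes, and all 5 were higher with no overlap, as were 19.6% of all genes. In MHCC97L-Src against MHCC97L-Oxa, DESeq2 called 0 of the 5, against 7.00% of all genes. By edgeR 3 had an unadjusted p under 0.05, against 19.5% of all genes. None of the 5 met the looser rule, met by 4.01%, and none was higher in MHCC97L-Src with no overlap, as 13.3% were. All 5 log2 fold changes were below 0 here, so the rule for higher values could count none of them. MMP2, TIMP2 and TIMP3 were lower with no overlap, a pattern whose share over all genes was not counted. The median log2 fold change of the 5 genes was 0.70, 1.06 and -0.36 in the 3 comparisons, against -0.16, -0.19 and -0.02 over all genes tested. The 5 that were tested are those with enough reads, so these counts say nothing of the other 5, and the comparisons with MHCC97L share its 3 libraries.

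**Figure D3:**
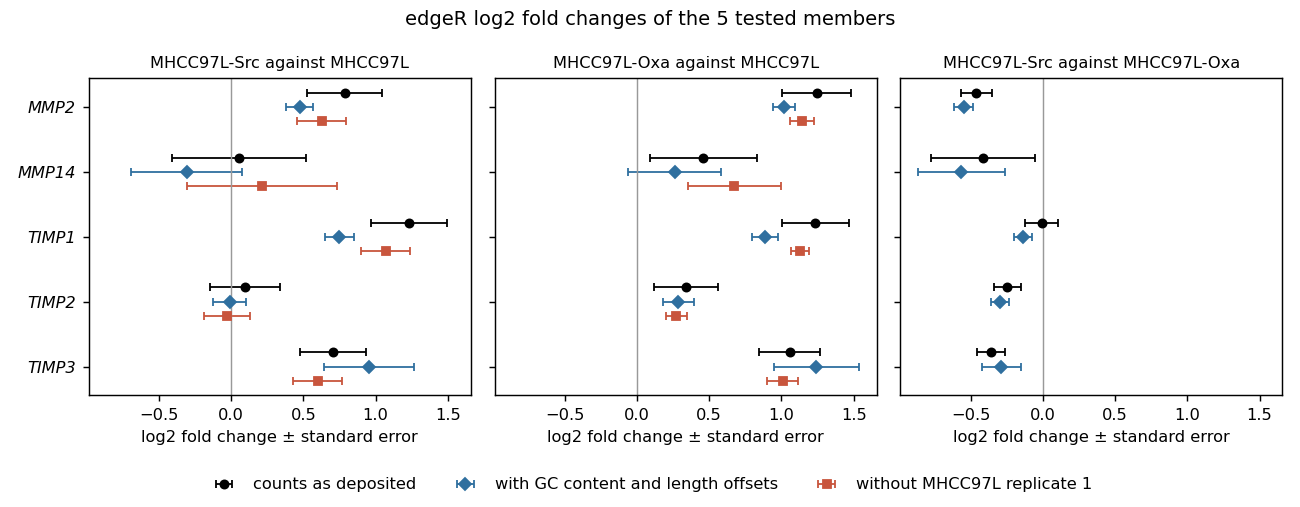
Log2 fold change with its standard error (x axis) of the 5 tested genes in the 3 comparisons, from counts as deposited, with GC content and gene length offsets, and without MHCC97L replicate 1 (the first 2 comparisons). MMP2, TIMP1 and TIMP3 stay right of 0 against MHCC97L in all 3 fits, TIMP2 of MHCC97L-Src lies at 0, and MMP2 lies left of 0 between the resistant lines.

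The balance of MMP2 with each inhibitor was described by the ratio of their FPKM within a library, a measure chosen after the values were seen. The ratio of MMP2 to TIMP1 was 0.407 ± 0.0142 in MHCC97L and 0.407 ± 0.00453 in MHCC97L-Oxa, where the log2 fold changes of MMP2 and TIMP1 against MHCC97L were 1.24 and 1.23. It was 0.300 ± 0.0203 in MHCC97L-Src, below every library of the other lines. The ratio of MMP2 to TIMP2 was 0.237 ± 0.0153 in MHCC97L, 0.381 ± 0.0548 for MHCC97L-Src and 0.429 ± 0.0157 for MHCC97L-Oxa, so that MMP2 was higher per TIMP2 in both resistant lines with no overlap. The ratio of TIMP1 to TIMP2 was 0.582 ± 0.0463 in MHCC97L, 1.28 ± 0.219 for MHCC97L-Src and 1.06 ± 0.0292 for MHCC97L-Oxa. The ratio of MMP2 to TIMP3 was 1.86 ± 0.156, 1.96 ± 0.200 and 2.11 ± 0.0209 in the same order of lines. These ratios carry no offsets for GC content and length. With the offsets the log2 fold change against MHCC97L was 0.47 (SE 0.09) for MMP2 and 0.96 (SE 0.31) for TIMP3 in MHCC97L-Src. In MHCC97L-Oxa it was 1.02 (SE 0.08) and 1.24 (SE 0.30). The TIMP3 estimate was thus the larger in both lines, opposite in order to the ratios, but with a wide standard error. The MMP2 value was still below that of TIMP1 (0.75) in MHCC97L-Src and above that of TIMP2 in both lines (-0.0092 and 0.29). In MHCC97L-Oxa the TIMP1 value with the offsets was 0.88 (SE 0.09), below the 1.02 of MMP2, whereas the ratio there equalled that of MHCC97L. Whether the changes of 2 genes differ with the offsets was not tested. With 3 libraries per line the exact two-sided permutation test cannot give a p below 0.1. Of 12 comparisons of ratios, 7 had no overlap and reached 0.1 (Benjamini-Hochberg adjusted 0.171). A p of 0.1 here restates that the libraries did not overlap. The ratios share genes and libraries, so these 7 are not separate results, and the share for other pairs of genes was not counted.

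**Figure D4:**
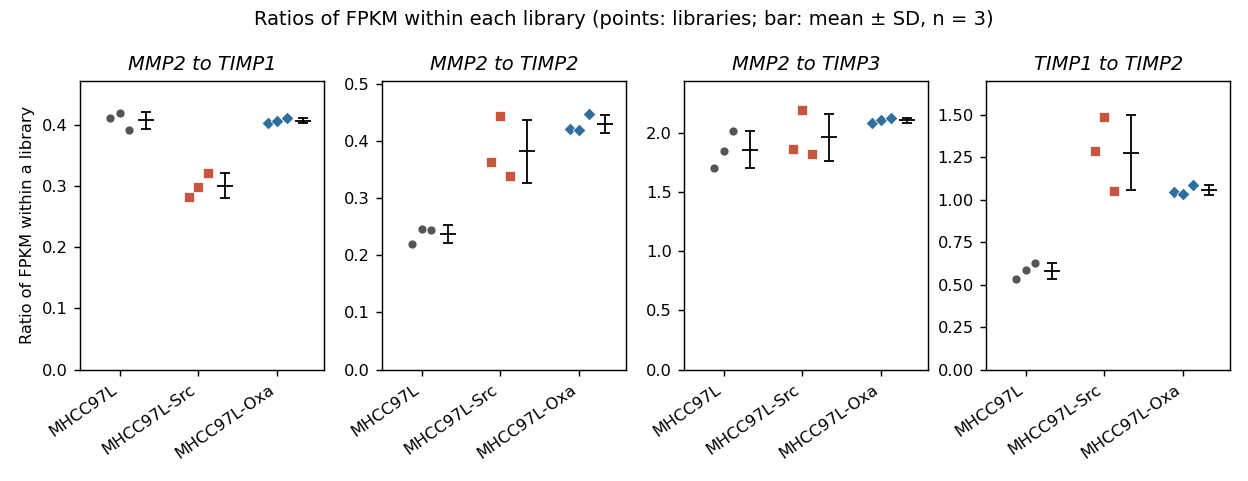
Ratios of FPKM within each library (y axis, from 0) for MMP2 to TIMP1, MMP2 to TIMP2, MMP2 to TIMP3 and TIMP1 to TIMP2, with 1 point per library and a bar for the mean ± SD (n = 3). MHCC97L-Src is alone in its low MMP2 to TIMP1 ratio of 0.300, and both resistant lines lie above MHCC97L in MMP2 to TIMP2 and TIMP1 to TIMP2.

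The other 16 MMP genes in the tables were read in the same way. MMP8, MMP10, MMP12, MMP20, MMP21, MMP26 and MMP27 had 0 reads in all libraries. Of the summed FPKM of all 23 MMP genes, MMP2 made up 42.5 to 57.2% and MMP15, a membrane-type MMP, 35.9 to 49.9%, whereas MMP14 made up 0.1 to 0.278%. MMP15 had 52.2 ± 11.4 FPKM in MHCC97L, 99.5 ± 5.76 for MHCC97L-Src and 83.8 ± 6.89 for MHCC97L-Oxa. Its log2 fold change was 1.00 (SE 0.27, adjusted p = 0.0930) for MHCC97L-Src and 0.66 (SE 0.25, adjusted p = 0.204) for MHCC97L-Oxa. MMP17, a membrane-type MMP held by a lipid anchor, had 3.62 ± 0.503, 8.71 ± 1.07 and 7.86 ± 0.539 FPKM in the same order of lines. MMP15 and MMP17 are named here for their level, after their values were seen. None of these genes passed against MHCC97L by edgeR: of 8 tested in MHCC97L-Src 2 had an unadjusted p under 0.05 (29.5% of all genes) and DESeq2 called 2 (17.6% of all genes), and of 7 tested in MHCC97L-Oxa 3 did (22.4%) and DESeq2 called 2 (7.40%). Their median log2 fold change was 0.12 over these 8, 0.66 over these 7 and -0.14 over the 7 tested between the resistant lines. Between the resistant lines, MMP24, a further membrane-type MMP, was higher in MHCC97L-Src (log2 fold change 1.36, SE 0.28, adjusted p = 0.0247) and MMP28, epilysin, was lower (-1.09, SE 0.19, adjusted p = 0.00991). MMP24 had 80 to 179 reads in MHCC97L, 82 to 125 in MHCC97L-Src and 39 to 52 in MHCC97L-Oxa. MMP28 had 107 to 227, 130 to 133 and 257 to 336 in the same order. For both genes MHCC97L-Src overlapped MHCC97L, and MHCC97L-Oxa lay below it for MMP24 and above it for MMP28. For MHCC97L-Oxa against MHCC97L the log2 fold change of MMP24 was -1.63 (SE 0.45, adjusted p = 0.152 by edgeR), and DESeq2 called it. That of MMP28 was 0.84 (SE 0.39, adjusted p = 0.239 by edgeR).

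**Figure D5:**
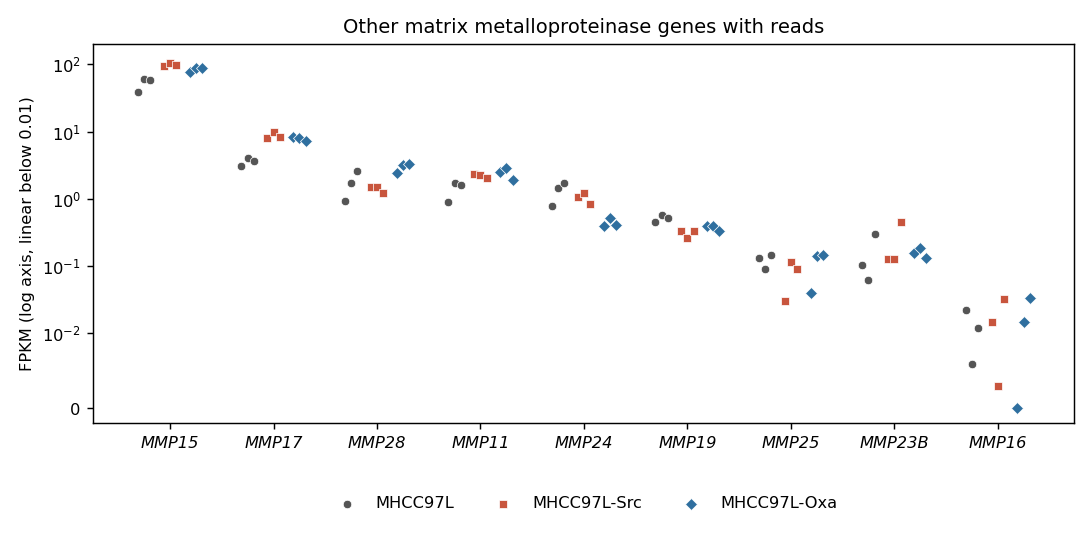
FPKM (y axis, logarithmic above 0.01 and linear below) of the 9 other MMP genes with any read, with 1 point per library and colour and shape by line. MMP15 is the most abundant at 39.2 to 106 FPKM, MMP17 follows at 3.09 to 9.94, and MMP24 and MMP28 order the resistant lines oppositely.

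Of 8 other inhibitors of matrix proteolysis, 7 were tested, with a median log2 fold change of 0.55 in MHCC97L-Src and 0.29 in MHCC97L-Oxa against MHCC97L and -0.06 between the resistant lines. An unadjusted p under 0.05 was seen for 3 of the 7 in MHCC97L-Src (29.5% of all genes) and 2 in MHCC97L-Oxa (22.4%). DESeq2 called SPINT1 in MHCC97L-Src (17.6% of all genes) and SERPINE2 and SPINT1 in MHCC97L-Oxa (7.40%). By edgeR the log2 fold changes of SPINT1 were 1.27 (SE 0.30, adjusted p = 0.0769) and 1.33 (SE 0.28, adjusted p = 0.0740). SERPINE2, protease nexin 1, rose in MHCC97L-Oxa, with 2557 to 3344 reads against 545 to 964 in MHCC97L (log2 fold change 1.94, SE 0.26, adjusted p = 0.0271) and 446 to 1190 in MHCC97L-Src (-1.80, SE 0.25, adjusted p = 0.00330). TFPI2, an inhibitor of plasmin and other serine proteases, was lower in MHCC97L-Src than in MHCC97L-Oxa (-0.79, SE 0.15, adjusted p = 0.0146). Its level was 15.6 ± 1.53 FPKM in MHCC97L, 8.58 ± 0.943 for MHCC97L-Src and 15.4 ± 1.11 for MHCC97L-Oxa. In MHCC97L-Src against MHCC97L it did not pass (-0.77, SE 0.29, adjusted p = 0.137). The remaining inhibitor of the TIMP family, TIMP4, did not pass in any comparison. Its level was 22.5 ± 5.33 FPKM in MHCC97L, 30.6 ± 0.692 for MHCC97L-Src and 26.1 ± 1.50 for MHCC97L-Oxa.

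Of 12 proteases that activate MMPs directly or through plasmin, 7 were tested and none passed against MHCC97L by edgeR. An unadjusted p under 0.05 was seen for 2 of the 7 in MHCC97L-Src (29.5% of all genes), where DESeq2 called 0 (17.6%), and for 3 in MHCC97L-Oxa (22.4%), where DESeq2 called 3 (CTSB, FURIN and PLAT, against 7.40% of all genes). Their median log2 fold change was 0.42 in the former, 0.60 in the latter and -0.07 between the resistant lines. PLAT, tissue plasminogen activator, was lower in MHCC97L-Src than in MHCC97L-Oxa (-0.64, SE 0.15, adjusted p = 0.0398). TMPRSS2 had 0 reads in all libraries. Of the surface partners and receptors, 10 were tested in MHCC97L-Src against MHCC97L and 9 in each other comparison, with medians of 0.19, 0.53 and -0.40. An unadjusted p under 0.05 was seen for 7 of the 10 in MHCC97L-Src (29.5% of all genes) and 5 of the 9 in MHCC97L-Oxa (22.4%). DESeq2 called 4 in MHCC97L-Src (BSG and LCN2 higher, CAV1 and ITGAV lower, against 17.6%) and 2 in MHCC97L-Oxa (LRP1 and PLAUR higher, against 7.40%). By edgeR, LCN2, lipocalin 2, which binds MMP9, was higher in MHCC97L-Src than in MHCC97L (4.30, SE 0.79, adjusted p = 0.0327), although with only 12 to 28 reads against 0 to 2. None of this list passed in MHCC97L-Oxa against MHCC97L by edgeR. CAV1, ITGAV and ITGA2, which encode caveolin 1 and the integrin subunits alpha V and alpha 2, were lower in MHCC97L-Src than in MHCC97L-Oxa (-0.90, -1.32 and -1.02, adjusted p = 0.0298, 0.0343 and 0.0488). Among 11 ADAM and ADAMTS proteases, relatives of the MMPs that TIMP3 in particular can inhibit, 10 were tested, with medians of -0.65, 0.12 and -0.55, and none passed against MHCC97L by edgeR. An unadjusted p under 0.05 was seen for 5 of the 10 in MHCC97L-Src and 4 in MHCC97L-Oxa, and DESeq2 called 3 in each, beside the shares of all genes given above (29.5% and 22.4%, and 17.6% and 7.40%). Those called were ADAM8 (higher), ADAM9 and ADAM10 (lower) in MHCC97L-Src, and ADAM8 and ADAM19 (higher) and ADAM9 (lower) in MHCC97L-Oxa. MHCC97L replicates 1 to 3 spread widely for ADAM9 (3743, 237 and 1331 reads) and ADAM10 (903, 137 and 478), and fits without replicate 1 are not given for them. ADAM12, ADAM19 and ADAMTS5 were lower in MHCC97L-Src than in MHCC97L-Oxa (-1.42, -0.75 and -0.93, adjusted p = 0.0127, 0.0260 and 0.0477).

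All 12 transcription factors of the AP-1, ETS and RUNX families, whose sites are known from MMP promoters, were tested, with medians of 0.19, 0.43 and -0.07. ETV4, ETV5 and FOS were higher in both resistant lines than in MHCC97L. The log2 fold changes were 2.33, 2.17 and 1.26 in MHCC97L-Src (adjusted p = 0.0153, 0.00921 and 0.0325) and 2.10, 2.34 and 1.36 in MHCC97L-Oxa (adjusted p = 0.0323, 0.00898 and 0.0323). JUN and JUNB, partners of FOS in AP-1, were lower in MHCC97L-Src than in MHCC97L-Oxa (-1.30 and -0.84, adjusted p = 3.85e-04 and 0.00457), and ETS2 was higher (0.73, adjusted p = 0.00395). JUN had 463 to 516 reads in MHCC97L-Src, 625 to 838 in MHCC97L and 1220 to 1348 in MHCC97L-Oxa, with no overlap. Against MHCC97L, JUN did not pass by edgeR in MHCC97L-Src (-0.55, SE 0.29, adjusted p = 0.225) or in MHCC97L-Oxa (0.74, SE 0.24, adjusted p = 0.185). DESeq2 called it in MHCC97L-Oxa, as it did 7.40% of all genes. The members of these lists that passed are named, and the lists were chosen with earlier results known, so the counts are descriptions. Whether any of these factors acts on the MMP or TIMP genes here was not tested.

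Leaving out 1 library at a time, the calls of SERPINE2, JUN, JUNB and ETS2 between the resistant lines held in all 6 fits. Against MHCC97L the calls of the listed genes were lost without MHCC97L replicate 3, and all were also lost without MHCC97L-Src replicate 3 or without each MHCC97L-Oxa library, with adjusted p-values up to 0.192 for FOS in MHCC97L-Src and 0.260 for FOS in MHCC97L-Oxa. For ETV5 they were at most 0.0614 in MHCC97L-Src and 0.117 in MHCC97L-Oxa, and in MHCC97L-Oxa those of ETV4 and SERPINE2 were at most 0.222 and 0.202. ETV4 and LCN2 were further lost without MHCC97L-Src replicate 2, at adjusted p-values up to 0.0638 and 0.135. FOS was further lost without MHCC97L-Src replicate 1 and without replicate 2. Between the resistant lines, ADAM12 was lost without MHCC97L-Oxa replicate 2 (adjusted p = 0.101). MMP28, ITGAV and ITGA2 were lost without MHCC97L-Oxa replicate 2, MHCC97L-Oxa replicate 3 or MHCC97L-Src replicate 1, with values up to 0.0859, 0.155 and 0.227. MMP24, TFPI2, PLAT, CAV1, ADAM19 and ADAMTS5 were lost without each of the MHCC97L-Oxa libraries or MHCC97L-Src replicate 1, up to 0.0988, 0.0950, 0.233, 0.141, 0.171 and 0.213. With the offsets the calls against MHCC97L were kept. The log2 fold changes were then 1.94 for ETV4, 2.42 for ETV5, 1.13 for FOS and 3.83 for LCN2 in MHCC97L-Src (adjusted p = 0.00107, 0.00393, 0.00330 and 0.0243), and 1.84, 2.55 and 1.23 for the first 3 and 2.24 for SERPINE2 in MHCC97L-Oxa (adjusted p = 0.00164, 0.00401, 0.00268 and 0.00339). None of these calls was lost without MHCC97L replicate 1. With the offsets, TFPI2, ITGA2 and ADAMTS5 were not called between the resistant lines (adjusted p = 0.0637, 0.0972 and 0.104).

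Markers of other cell types moved between the lines as well, and their part in the values above was not tested. The summed FPKM of the 8 fibroblast markers was 90.8 to 107 in MHCC97L, 58.1 to 62.6 for MHCC97L-Src and 79.0 to 83.4 for MHCC97L-Oxa and THY1 had the most reads among them. For the 7 macrophage and leukocyte markers, among which CD68 was present and PTPRC, CD163 and LYZ were at 0, the sums were 15.4 to 23.4, 23.4 to 28.0 and 44.0 to 44.6. CD68 had the most reads of this list, and CD14 and CSF1R did not follow its order. CD14 had 16 to 20 reads in MHCC97L, 97 to 104 for MHCC97L-Src and 79 to 91 for MHCC97L-Oxa, and CSF1R had 170 to 233, 29 to 56 and 129 to 140. For the 6 endothelial markers they were 17.6 to 24.2, 28.9 to 32.0 and 21.6 to 23.5, with KDR at 0 in all libraries. ENG had the most reads of these, and CDH5 had 17 to 28, 188 to 236 and 7 to 12 reads. Of all markers, those with an adjusted p under 0.05 by edgeR in MHCC97L-Src against MHCC97L were CD14 (log2 fold change 2.58, adjusted p = 0.0236) and CDH5 (3.30, adjusted p = 0.0139). In MHCC97L-Oxa against MHCC97L they were CD14 (2.24, adjusted p = 0.0428) and SERPINA1 (4.14, adjusted p = 0.0323), the latter with 1 read in each MHCC97L library and 14 to 31 in MHCC97L-Oxa. These 4 calls were lost without MHCC97L replicate 3, among other libraries, with adjusted p-values up to 0.115, 0.0823, 0.263 and 0.207, and were kept without MHCC97L replicate 1 and with the offsets. Between the resistant lines CDH5 (4.61), KRT18 (0.91) and KRT8 (0.87) were higher in MHCC97L-Src, and DCN (-1.89), CSF1R (-1.57), PDGFRB (-1.32) and CD68 (-0.75) were lower, with adjusted p-values of 1.70e-05, 0.00471, 0.0136, 0.00294, 0.0135, 0.00395 and 0.0116. Of these, KRT8, CSF1R and CD68 lost the call without 3 or more of the 6 libraries, with adjusted p-values up to 0.106, 0.0753 and 0.0763. In bulk libraries a change in the share of cells and a change in RNA per cell cannot be told apart.

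The genes whose log2 CPM followed MMP2 most closely across the 9 libraries were FGF21 (Pearson r = 0.996), LRP1 (0.992) and PTPRF (0.991), among 12077 genes. LRP1 is an endocytic receptor known to clear MMP2 and TIMP complexes from the medium, FGF21 is a secreted hormone and PTPRF is a receptor tyrosine phosphatase. TIMP3 was 10th (r = 0.989), TIMP1 197th (0.944), TIMP2 872nd (0.864) and MMP14 3634th (0.515). The points are 9 libraries of 3 lines, so that the correlation mostly restates the order of the lines, and no p is given. LRP1 had 8407 to 11430 reads in MHCC97L, 13936 to 14125 for MHCC97L-Src and 19172 to 21400 for MHCC97L-Oxa. FGF21 had 13 to 39, 66 to 80 and 113 to 133 reads in the same order of lines, without overlap.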

How the data were processed

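RNA of 3 lines was sequenced in 3 libraries each, from stranded, poly(A)-selected, paired-end preparations. Per the labels, the authors' processing notes name Trimmomatic 0.36, HISAT2 2.2.1.0 and the build GRCh38.p12. The program that made the tables and its strand setting are not given in the sources used here. The deposited count table holds raw read counts for 20030 genes, which were tested, and the deposited FPKM table holds the authors' length-scaled values, which were used to set levels of genes side by side; 245 to 297 genes per library had reads but FPKM 0.

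Counts were fitted with edgeR 4.0.16 (R 4.3.3): filterByExpr with a minimum count of 10, TMM scaling, the quasi-likelihood test on the 6 libraries of 2 lines, and Benjamini-Hochberg adjustment over all genes tested, with a threshold of 0.05. The code was tested on simulated counts. Alternatives were DESeq2 1.42.0, its size factors, no filter, a replicate block, all 9 libraries, limma 3.58.1 on log2(FPKM + 1) or log2(FPKM + 0.1), GC content and length offsets, and leaving out each library. GC content and length came from GENCODE release 29 transcripts, matched by RefSeq accession or gene symbol for 96.6% of genes. Ratios were tested by exact permutation in SciPy 1.17.1. Coordinates are from GENCODE release 29 and promoters from RefSeq. All 10 genes are named. Genes of the other lists are named if they passed an adjusted p of 0.05 in a comparison or had no reads, and the 3 genes closest to MMP2 by Pearson correlation are named. Further genes named for their level are said to be so. The genes and lists were chosen with earlier results of these data known. The results of 1 listed gene are not reported here.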

Additional observations from a re-analysis of the deposited data

Results flagged for a closer look

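Both resistant lines derive from MHCC97L, so a difference between them is a difference between 2 effects against the same parent, tested directly by edgeR in the 6 libraries of the resistant lines. By this test MMP2 differed, with a log2 fold change of -0.46 for MHCC97L-Src against MHCC97L-Oxa, and the call was lost without each of 4 of the 6 libraries. Of the other genes of matrix proteolysis and the transcription factors listed, SERPINE2 (-1.80), ADAM12 (-1.42), ITGAV (-1.32), JUN (-1.30), MMP28 (-1.09), ITGA2 (-1.02), ADAMTS5 (-0.93), CAV1 (-0.90), JUNB (-0.84), TFPI2 (-0.79), ADAM19 (-0.75) and PLAT (-0.64) were lower in MHCC97L-Src, and MMP24 (1.36) and ETS2 (0.73) were higher. Of the markers of cell types, CDH5 (4.61), KRT18 (0.91) and KRT8 (0.87) were higher in MHCC97L-Src, and DCN (-1.89), CSF1R (-1.57), PDGFRB (-1.32) and CD68 (-0.75) were lower.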

How the results depend on the processing

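Of the values of the 5 tested genes under the alternatives, 161 kept their direction and side of the threshold, 45 passed newly, 8 no longer passed and 11 turned in sign. All 11 were small. For MMP14 in MHCC97L-Src against MHCC97L they were -0.31 with the offsets, -0.30 with the replicate block and offsets, -0.02 without MHCC97L replicate 3 and -0.28 without MHCC97L-Src replicate 2. For TIMP2 they were -0.0092 with the offsets, -0.0025 with the replicate block and offsets, and -0.0254 without MHCC97L replicate 1. For TIMP1 between the resistant lines they were 0.0133 with DESeq2 and with its size factors, 0.0046 without MHCC97L-Oxa replicate 3 and 0.0963 without MHCC97L-Src replicate 3. In MHCC97L-Src against MHCC97L the number passing an adjusted p, 0 as reported, became 1 with DESeq2, its size factors, no filter, the replicate block or either limma fit, 2 with the offsets, 3 with all 9 libraries, and 0 to 3 leaving out a library. The number under the looser rule, 1 as reported, became 2 with no filter (the other being MMP13, lower, with 0 reads in MHCC97L-Src and 0 to 8 in MHCC97L, and not one of the 5), 0 with the offsets, and 1 to 2 leaving out a library. In MHCC97L-Oxa against MHCC97L the adjusted number, 0 as reported, became 3 with DESeq2, all 9 libraries, either limma fit, the offsets, or the replicate block with offsets, 2 with no filter, and 0 to 3 leaving out a library. Between the resistant lines, 1 as reported became 0 with DESeq2, its size factors, the replicate block or all 9 libraries, 2 with either limma fit or the offsets, and 0 to 2 leaving out a library. Leaving out a library gave log2 fold changes of -0.2755 to 0.253 for this MMP14 comparison, -0.0254 to 0.2944 for that of TIMP2 and -0.1156 to 0.0963 for that of TIMP1. The cause of these moves was not tested. Over all genes, the calls were 256, 115 and 556 in the 3 comparisons, and under the alternatives 22 to 3419, 2 to 2705 and 86 to 1617. The extremes for the first 2 were fits without MHCC97L replicate 3 or an MHCC97L-Oxa library and without MHCC97L replicate 2. Replicate numbers did not pair the libraries: same-numbered libraries correlated in their deviations at -0.645 to 0.44. Higher genes were 172 of the 256 and 93 of the 115, against 723 of 2114 and 571 of 893 with DESeq2 and 722 of 1353 and 816 of 1615 with the offsets. The replicate block gave 988, 92 and 406 calls. The other listed genes kept their call in 358 fits and lost it in 137. The 5 MMPs with at most 9 reads were limited by depth.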
